A study of Mus musculus with 24 samples.

Results

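The 42 autophagy genes described here encode the core machinery of macroautophagy, its cargo receptors and 4 transcription regulators, and they were listed by symbol. They comprise 5 genes of the initiation kinase complex, 6 of the class III PI3-kinase complex, 6 for membrane supply and PI3P effectors and 7 of the conjugation machinery. The others are 4 ATG4 proteases, 5 members of the ATG8 family, 5 cargo receptors and the 4 transcription regulators Foxo1, Foxo3, Creb1 and Crtc2. Of the 42 genes, 38 were measured among 18820 named genes, each through the probe set with the highest mean over all arrays. Becn1, Vmp1, Atg4d and Optn were not analysed here, the first 3 because their probe sets carried several symbols.

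Livers came from 24 male C57BL/6 mice kept on chow, 1 mouse per array, in 4 groups of 6. Wild-type mice and mice lacking the bile acid receptor FXR throughout the body (FXR-/-) were 9 to 12 weeks old when treatment began. Both genotypes received either obeticholic acid (OCA, INT-747), a semi-synthetic FXR agonist, at 10 mg/kg/day, or the 1% methyl cellulose in which it was dissolved. Dosing was by daily oral gavage for 7 days, and total RNA of whole liver was hybridised. The sources used here do not give the feeding state at sacrifice. The mixture of cells in whole liver means that fewer cells of a type and less RNA per cell cannot be told apart.

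Autophagy begins when the ULK1 kinase complex activates a lipid kinase complex that marks a forming membrane with the lipid PI3P. The membrane grows through lipid transfer and through ubiquitin-like conjugation, which couples ATG12 to ATG5 and ATG8-family proteins such as LC3 to lipid, and receptors such as p62 then hold the cargo. In hepatocytes the pathway recycles organelles, protein and lipid during fasting. After feeding, FXR and its target SHP are known to repress autophagy genes, by competing with PPARα at shared sites and by separating the activator CREB from its coactivator CRTC2, while FOXO factors and TFEB activate the genes. The comparisons ask how these mRNAs stood after 7 days of receptor activation, and in its absence.

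Start-site sequences were available for 34 of the 42 members, as windows from 250 bases before to 50 after each start in RefSeq (GRCm38.p6), and both strands were searched. The letters CACGTG, bound by TFEB and related factors, occurred in 5 of these 34 genes (14.7%), against 8.09% of 27025 genes with such windows. Stretches of 100 bases are shown for these 5, 5′ to 3′ on the strand of the gene and with the motif in capitals, because Atg7, Atg3 and Atg14 were called between genotypes under vehicle and under OCA, Atg7 higher and the others lower, while Atg5 and Bnip3 were not called. They lie at chr6:114670890-114670989 (plus strand, Atg7), chr16:45158684-45158783 (plus, Atg3), chr14:47568430-47568529 (minus, Atg14), chr10:44268239-44268338 (plus, Atg5) and chr7:138909589-138909688 (minus, Bnip3).
Atg7: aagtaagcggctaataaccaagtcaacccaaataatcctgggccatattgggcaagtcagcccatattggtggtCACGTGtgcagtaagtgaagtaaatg
Atg3: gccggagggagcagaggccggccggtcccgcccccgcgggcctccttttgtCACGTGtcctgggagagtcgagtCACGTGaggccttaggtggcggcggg
Atg14: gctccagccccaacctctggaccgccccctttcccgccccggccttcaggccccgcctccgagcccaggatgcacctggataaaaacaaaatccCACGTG
Atg5: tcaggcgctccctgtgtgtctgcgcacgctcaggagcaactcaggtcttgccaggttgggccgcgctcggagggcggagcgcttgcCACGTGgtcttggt
Bnip3: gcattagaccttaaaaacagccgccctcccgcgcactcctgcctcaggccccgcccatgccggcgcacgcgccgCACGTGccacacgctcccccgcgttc
The match lay 132 bases before the start in Atg7, 94 and 71 bases before it in Atg3, 14 before it in Atg5 and 108 before it in Bnip3, and in Atg14 it spanned the start. A match is a run of letters and was not tested as a bound site.

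One array and the array layout touch several results. Wild-type vehicle replicate 6 stood apart, with 9 of 38 members over 0.5 (log2) from the mean of the other 5 arrays of its group, against 0 to 3 members in any other array. Array names held a number of unstated meaning, which was 5 for the 6 wild-type OCA arrays and 9 for the 6 knockout OCA arrays. Among vehicle arrays it was 7 for 4 of each genotype, 5 for 2 wild-type and 9 for 2 knockout arrays. Fits with this number as a block therefore take the vehicle genotype estimate from number 7 alone. The wild-type OCA estimate then comes from number 5, where 6 OCA arrays face 2 vehicle arrays, replicates 5 and 6. Block fits and fits within 7 or 5 thus share these estimates and differ in the error term. Nr1h4, which encodes FXR, differed by −0.17 ± 0.07 (SE) in knockout liver under vehicle (limma, adjusted p = 0.0935), and where its probes lie relative to the deletion is not known, so its level does not check the genotype. The FXR target Nr0b2 (SHP) was 6.16-fold lower in knockout liver and 2.65-fold higher with OCA in wild-type liver (limma, adjusted p = 1.21e-08 and 0.0244), the second losing its call in 9 of 12 fits without 1 array. The summed level of 6 hepatocyte markers was 15.15 to 15.5 (log2) in all arrays.

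OCA moved none of the 38 measured autophagy genes past the threshold in wild-type liver, where 13 of all 18820 genes were called. The count was 0 of 38 (limma, Benjamini-Hochberg adjusted p below 0.05), against 0.0691% of all genes (0.0319% higher and 0.0372% lower). At an unadjusted p below 0.05 there were 7 members (18.4%), against 9.47% of all genes. Their median log2 change was 0.00, as was that of all genes, and the single changes ran from −0.26 to 0.34. The 95% intervals reached from −0.47 for the PI3P effector gene Wipi1 to 0.57 for the conjugation gene Atg16l2, and 36 of 38 lay within 0.5 of 0 on both sides. In 0 of 38 genes did the OCA and vehicle arrays separate completely, against 0.191% of all genes for higher and 0.266% for lower.

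Among these unadjusted results, 3 of the 4 transcription regulators came first. Creb1, the cAMP-responsive activator, ran from 6.64 through a median of 6.96 to 7.13 in wild-type vehicle arrays and from 7.07 through 7.26 to 7.36 in wild-type OCA arrays. The groups overlapped between 7.07 and 7.13. The log2 difference was 0.31 ± 0.07 (SE, n = 6 each; limma, adjusted p = 0.0907). In knockout liver Creb1 stood 0.20 ± 0.07 higher with OCA (adjusted p = 0.838), from 6.87 through 6.88 to 6.99 under vehicle and from 7.00 through 7.09 to 7.19 with OCA. Creb1 was the 1 member whose knockout OCA arrays all lay above the knockout vehicle arrays, against 0.303% of all genes.

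The Creb1 difference moved with the array layout. With the array number as a block it was 0.49 (limma, adjusted p = 0.00281). Within number 5, where OCA arrays face vehicle replicates 5 and 6, the estimate is the same (0.49, adjusted p = 0.195). With the block but no replicate 6, which leaves vehicle replicate 5 alone, the difference was 0.38 and was not called. Without wild-type vehicle replicate 3 it was called (adjusted p = 0.0321), and it was called among genes above the median gene (0.31, adjusted p = 0.0406). Over the 12 fits that left out 1 array it ranged from 0.25 to 0.35.

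Foxo3, a FOXO activator of autophagy genes, stood 0.34 ± 0.10 higher with OCA in wild-type liver (limma, adjusted p = 0.207) and at −0.12 ± 0.10 in knockout liver (adjusted p = 0.992). Its vehicle arrays ran from 7.43 through 7.92 to 8.20 and its OCA arrays from 8.05 through 8.23 to 8.38, with the lowest value in replicate 6. The OCA effects of the genotypes differed by −0.47 ± 0.14 (limma, adjusted p = 0.506). With the array number as a block Foxo3 was called, at 0.67 in wild-type liver (limma, adjusted p = 0.00268) and −0.83 for the difference (adjusted p = 0.0416). The wild-type estimate then rests on 2 vehicle arrays, replicates 5 and 6. With replicate 6 also left out only vehicle replicate 5 remained there, and Foxo3, at 0.55 and −0.71, was not called. The number block raised the calls over all genes from 13 to 667, or 3.54%. Under it Ulk2 (0.45) and Wipi1 (−0.48) were called as well, and without replicate 6 they stood at 0.08 and −0.17. Crtc2, the CREB coactivator, stood at −0.22 ± 0.06 with OCA in wild-type liver (adjusted p = 0.187), with arrays of 8.42 through 8.56 to 8.68 under vehicle and of 8.11 through 8.33 to 8.57 with OCA. The Foxo3 groups overlapped, and so did the Crtc2 groups.

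The machinery genes with the smallest p in each role group also overlapped between OCA and vehicle. Pik3c3, the catalytic lipid kinase, stood at −0.19 ± 0.06 (limma, adjusted p = 0.274), with arrays of 7.26 to 7.56 under vehicle and 7.10 to 7.41 with OCA. The lipid transfer gene Atg2a stood at −0.16 ± 0.06 (adjusted p = 0.399), with arrays of 8.20 to 8.49 and 8.14 to 8.40. Differences of the others were 0.13 for the kinase gene Ulk1, −0.14 for Atg5, 0.10 for the protease gene Atg4c, −0.13 for the LC3 gene Map1lc3b and −0.08 for the mitophagy receptor gene Bnip3l, with adjusted p from 0.564 to 0.768. Map1lc3b stood at −0.01 without wild-type vehicle replicate 6, the array in which it was highest. Against vehicle replicate 5 alone, with the array number as a block, Atg2a, Atg4c, Map1lc3b and Bnip3l changed sign, to 0.04, −0.09, 0.09 and 0.02.

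In knockout liver OCA called 0 of 38 members, against 0.0159% of all genes (0.00531% higher and 0.0106% lower; limma), and 2 members had an unadjusted p below 0.05 (5.26%, against 5.14% of all genes). These were Creb1 and Atg2a (−0.16 ± 0.06, adjusted p = 0.90). The test of the difference between the OCA effects in the 2 genotypes called 0 members, against 0.0% of all genes, and 2 members at an unadjusted p below 0.05 (5.26%, against 6.06%), Foxo3 and Pik3c3 (0.19 ± 0.09, adjusted p = 0.813).

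**Figure D1:**
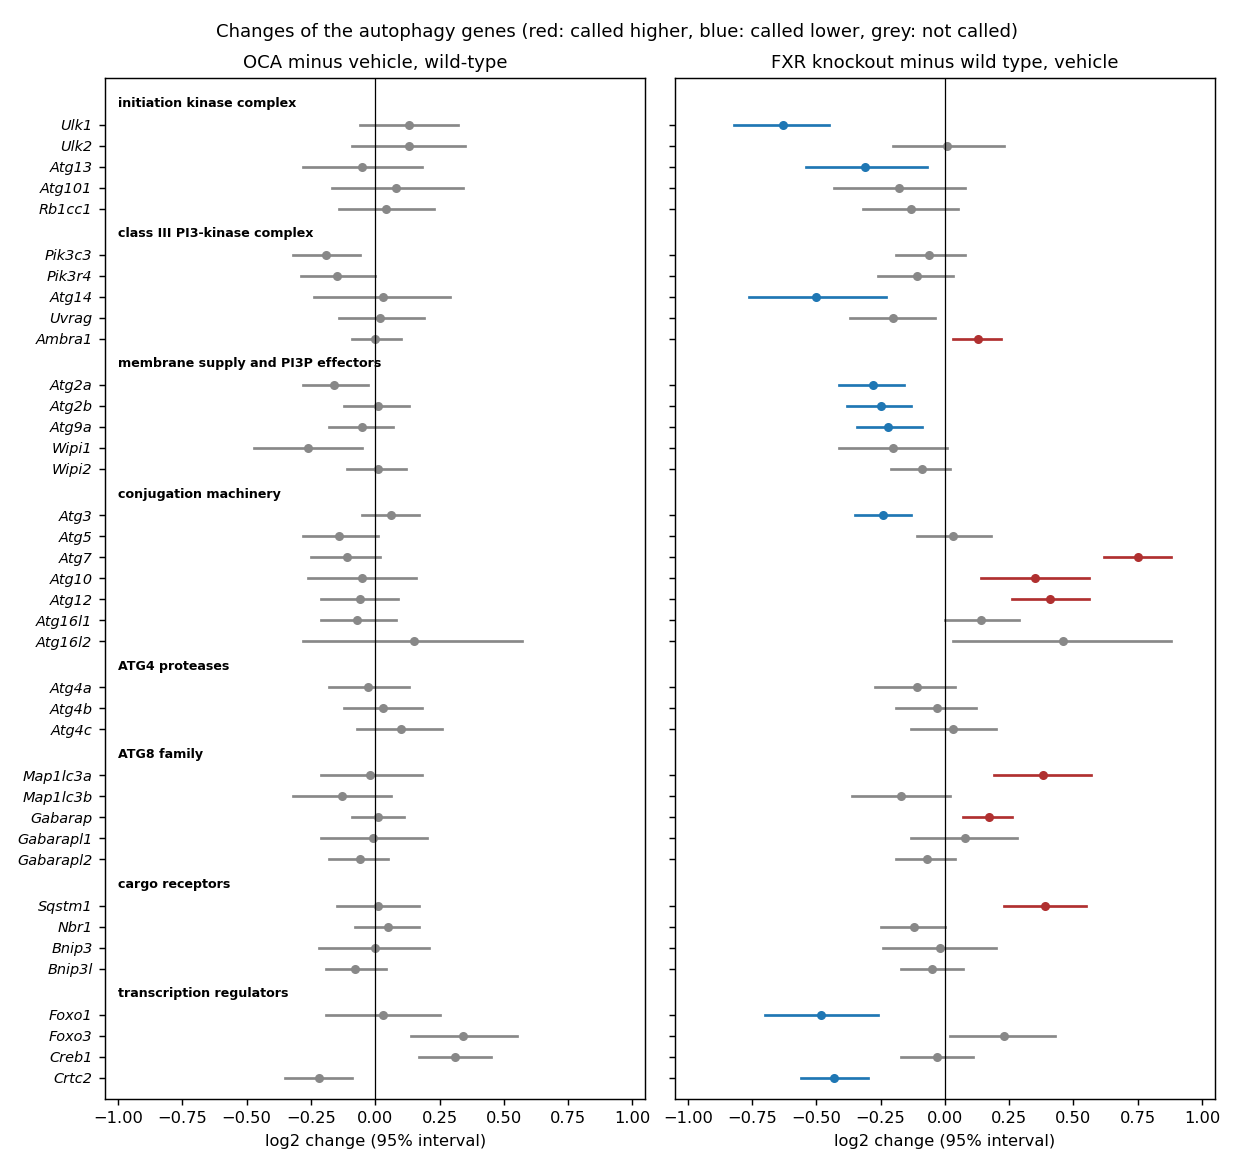
Log2 change of each of the 38 measured autophagy genes by role, for OCA minus vehicle in wild-type liver (left) and knockout minus wild type under vehicle (right). Points are limma estimates from 6 arrays per group and bars 95% intervals. Red and blue mark genes called higher and lower, which appear only on the right, 7 and 9 of them.

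FXR-knockout liver differed from wild-type liver in 16 of the 38 genes under vehicle, 7 higher and 9 lower. This was 42.1% of the measured members, against 27.5% of all genes called (15.4% higher and 12.1% lower; limma, adjusted p below 0.05). The measured members all lay above the median gene (lowest mean 6.19, for Atg16l2, against 5.28). With the fit limited to the 9410 genes above it, 2402 were called higher and 2005 lower, and 7 and 10 of the 38 members. The members' share was then close to that of these genes. At an unadjusted p below 0.05 there were 19 members of 38, against 37.5% of all genes. The wild-type vehicle arrays are the same ones that serve as control for OCA above. The genes of initiation (2), membrane supply (3) and transcription (2) that passed were lower. Those that passed in the ATG8 family (2) and the cargo receptors (1) were higher. The class III PI3-kinase complex and the conjugation machinery had calls in both directions. These are few genes per role, and several of the calls, such as Atg13, Map1lc3a and Gabarap, were lost in other settings. The median change was −0.06, against −0.03 over all genes. All knockout arrays lay above all wild-type arrays in 3 of the 38 members and below them in 6 of the 38. Over all genes the shares were 9.4% and 5.67%, so for higher the members' share was the smaller. Such shares were not worked out for genes above the median gene. Centring each array on its median gene shifted the median of all genes from −0.03 to −0.20 and changed the counts to 3 higher and 23 lower, so the direction of small changes depends on the scaling. The 14 members it added were all lower, among them Pik3c3, Pik3r4, Wipi1, Atg4a, Atg4b and Map1lc3b. Over all genes that centring called 1776 higher and 8354 lower, against 2903 and 2271.

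Of the 16 calls under vehicle, 3 of the higher (Atg7, Atg12 and Sqstm1) and 6 of the lower (Ulk1, Atg2a, Atg3, Atg9a, Foxo1 and Crtc2) passed in all 24 alternative fits, array centring and each left-out array among them. The fit with the array number as a block and the fit within number 7 give the same estimate. Within array number 7, with 4 arrays of each genotype, 5 members were higher and 9 lower, and 11 of the 16 calls were shared. There Ulk1 stood at −0.69, Crtc2 at −0.46, Foxo1 at −0.37, Atg7 at 0.71, Atg12 at 0.51 and Sqstm1 at 0.36. Without wild-type vehicle replicate 6 there were 8 higher and 10 lower.

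Under OCA, in 12 other mice, knockout and wild-type liver differed in 18 of the 38 genes, 6 higher and 12 lower. The share was 47.4%, against 30.7% of all genes (17.4% higher and 13.3% lower). Among the 9410 genes above the median gene, where all measured members lie, 2687 were called higher and 2223 lower. In that fit 7 members were higher and 13 lower, again a share close to that of those genes. At an unadjusted p below 0.05 there were 22 members, or 57.9%, against 39.6% of all genes. The median change was −0.10, against −0.02 over all genes. Knockout arrays lay wholly above wild-type arrays in 3 of the 38 members and wholly below them in 9 of the 38. Over all genes the shares were 10.9% and 7.48%, so for higher the members' share was again the smaller. Such shares were again not worked out for genes above the median gene. The vehicle and OCA comparisons share no array. They called 5 of 38 members higher in both (13.2%, against 12.9% of all genes). These 5 are 71.4% of the members' higher calls under vehicle and 83.3% of those under OCA, against 83.7% and 74.1% for all genes. They called 8 members lower in both (21.1%, against 8.01% of all genes), which is 88.9% and 66.7% of the members' lower calls, against 66.4% and 60.3% for all genes. The share called in both was not worked out for genes above the median gene, so 8.01% is not matched to the members by expression level. Of those 9410 genes, 2005 were called lower under vehicle and 2223 under OCA. The vehicle and OCA comparisons called 0 members in opposite directions.

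The OCA comparison sets array number 5 against number 9, and only the vehicle arrays link the numbers. With the number as a block 2 members were higher (Atg7 and Atg12) and 5 lower (Ulk1, Uvrag, Atg9a, Nbr1 and Foxo3), so 12 of the 18 calls, Atg14, Atg2a, Atg2b, Atg3, Map1lc3a, Sqstm1, Foxo1 and Crtc2 among them, did not pass that block. Over all genes the block gave 1401 higher and 933 lower calls, against 3280 and 2500 without it. Without the 4 arrays named with a final _2 there were 5 higher and 7 lower. Atg7, Atg12, Ulk1, Atg9a and Uvrag passed in all 22 alternative fits run for this comparison. Array centring gave 3 higher and 25 lower, with the median of all genes at −0.21.

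**Figure D2:**
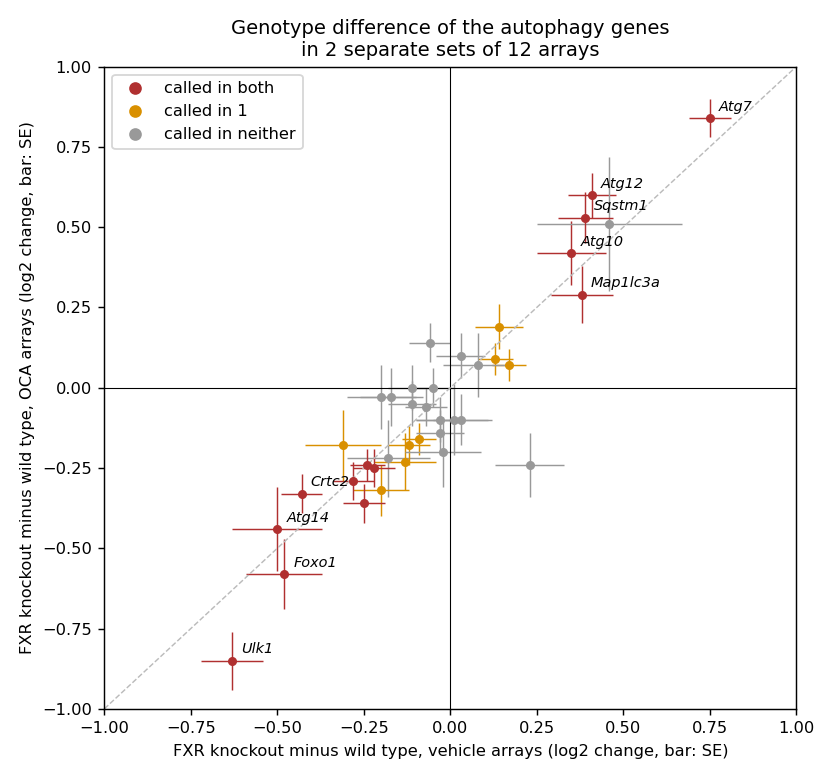
Log2 difference between knockout and wild type for the 38 autophagy genes, in the 12 vehicle arrays (horizontal axis) and the 12 OCA arrays (vertical axis), with bars of 1 SE. Red points were called in both, orange in 1 and grey in neither, and the dashed line marks equal differences. Atg7 and Ulk1 lie at the 2 ends, at 0.75 and 0.84 and at −0.63 and −0.85.

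Of the initiation kinase complex, 2 of 5 genes fell in knockout liver under vehicle and 0 rose, against 12.1% and 15.4% of all genes. These shares, here and for the role groups below, are not matched to the members by expression level. Of the 9410 genes above the median gene, where all measured members lie, 2005 were lower and 2402 higher under vehicle. Ulk1, the kinase that starts autophagy, ran from 9.56 through a median of 9.79 to 10.01 in wild-type vehicle arrays and from 8.96 through 9.19 to 9.32 in knockout vehicle arrays. With OCA it ran from 9.61 through 9.92 to 10.19 in wild-type and from 8.96 through 9.06 to 9.25 in knockout arrays. Every knockout array lay below every wild-type array under both treatments. It was 1.55-fold lower under vehicle (−0.63 ± 0.09 SE, limma, adjusted p = 5.01e-06) and 1.80-fold lower under OCA (−0.85 ± 0.09, adjusted p = 4.98e-08). Its close relative Ulk2 stood at 0.01 ± 0.11 and −0.10 ± 0.11, with adjusted p of 0.94 and 0.523.

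Atg13, the scaffold that links ULK1 to its partners, fell by 0.31 under vehicle (SE 0.11, limma, adjusted p = 0.0441) with overlapping arrays of 8.91 to 9.52 and 8.75 to 9.12. Its call ended in 8 of 12 fits without 1 array, wild-type vehicle replicate 6 among them (−0.26, adjusted p = 0.0978), and within array number 7 (−0.16, adjusted p = 0.335). Rb1cc1, which encodes the scaffold FIP200, fell by 0.23 under OCA (adjusted p = 0.0472), lost the call in 9 of 12 such fits, and its second probe set stood at −0.06.

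In the class III PI3-kinase complex Atg14, the subunit that directs the complex to autophagy, was lower in knockout liver. Wild-type vehicle arrays ran from 7.28 through 7.49 to 8.41 and knockout vehicle arrays from 7.02 through 7.06 to 7.28. With OCA the values were 7.41 through 7.58 to 7.85 in wild-type and 7.11 through 7.15 to 7.30 in knockout arrays. The groups did not overlap at full precision, although the vehicle groups met at 7.28. It was 1.41-fold lower under vehicle (−0.50 ± 0.13, limma, adjusted p = 0.00454) and 1.36-fold lower under OCA (−0.44 ± 0.13, adjusted p = 0.00972).

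The size of the Atg14 difference under vehicle depended on the highest wild-type array, replicate 6 at 8.41. Without that array the difference was −0.34 and was still called (limma, adjusted p = 0.0026). With the array number as a block it was −0.38 under vehicle (adjusted p = 0.0794) and −0.08 under OCA (adjusted p = 0.902). Within number 7, which gives the same vehicle estimate, it was −0.38 (adjusted p = 0.012). Replicate 6 is among the wild-type vehicle arrays that link the numbers in that block, and the block fit under OCA was not repeated without it. Without the arrays named with a final _2 the OCA value was −0.41 (adjusted p = 0.106). Its start-site stretch, shown above, holds CACGTG across the start.

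Uvrag, a subunit of the complex that acts in endosome and autophagosome maturation, fell by 0.32 under OCA (SE 0.08, limma, adjusted p = 0.00333), with all knockout arrays (8.29 to 8.40) below all wild-type arrays (8.45 to 8.73). Under vehicle it stood at −0.20 ± 0.08 (adjusted p = 0.0625), and it passed in 9 alternative fits, among them within array number 7 (−0.29, adjusted p = 0.00918) and without replicate 6 (−0.27, adjusted p = 0.00398). Ambra1, an adaptor that recruits the complex, was 0.13 ± 0.05 higher under vehicle (adjusted p = 0.0408), lost the call in 10 of 12 fits without 1 array, and turned to −0.04 with array centring. The catalytic subunit Pik3c3 and the regulatory subunit Pik3r4 were called in neither comparison, except with array centring, which called both lower under vehicle and Pik3r4 lower under OCA.

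Of 5 measured genes for membrane supply and PI3P effectors, 3 fell under vehicle and 4 under OCA, and 0 rose. Over all genes 12.1% and 13.3% fell, and of the 9410 genes above the median gene 2005 and 2223 did. Atg2a, which encodes a lipid transfer protein of the growing membrane, ran from 8.20 through 8.42 to 8.49 in wild-type vehicle arrays and from 8.05 through 8.12 to 8.17 in knockout vehicle arrays. With OCA it ran from 8.14 through 8.23 to 8.40 and from 7.77 through 7.96 to 8.12. No knockout array reached a wild-type array under the same treatment. The differences were −0.28 ± 0.06 (limma, adjusted p = 0.000893) and −0.29 ± 0.06 (adjusted p = 0.000606), both 1.22-fold lower.

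Its relative Atg2b fell by 0.25 under vehicle (limma, adjusted p = 0.00197) and by 0.36 under OCA (adjusted p = 2.94e-05), with 7.70 to 7.95 against 7.50 to 7.69 and 7.82 to 7.97 against 7.40 to 7.71. Arrays of the genotypes did not overlap, and the second Atg2b probe set stood at −0.43 and −0.40. Within array number 7 Atg2b missed the threshold (−0.24, adjusted p = 0.0548). Atg9a, the lipid scramblase of the vesicles that seed the membrane, fell by 0.22 under vehicle (adjusted p = 0.00826) and by 0.25 under OCA (adjusted p = 0.00229), with overlapping arrays under vehicle. The PI3P-binding gene Wipi2 fell by 0.16 under OCA (adjusted p = 0.031) and lost the call in 6 of 12 fits without 1 array.

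The conjugation machinery held the clearest increases, with 3 of 7 genes higher and 1 lower under vehicle, and 4 higher and 1 lower under OCA. Among all genes 15.4% were higher and 12.1% lower under vehicle, and 17.4% and 13.3% under OCA. Of the 9410 genes above the median gene 2402 were higher and 2005 lower under vehicle, and 2687 and 2223 under OCA. Atg7, the activating enzyme that both conjugation branches need, ran from 7.81 through 7.90 to 8.13 in wild-type vehicle arrays and from 8.57 through 8.69 to 8.82 in knockout vehicle arrays. With OCA it ran from 7.76 through 7.82 to 7.88 and from 8.55 through 8.64 to 8.80. Every knockout array lay above every wild-type array, whatever the treatment. Atg7 was 1.68-fold higher under vehicle (0.75 ± 0.06 SE, limma, adjusted p = 1.42e-09) and 1.79-fold higher under OCA (0.84 ± 0.06, adjusted p = 1.71e-10).

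Atg12, the ubiquitin-like protein joined to ATG5, ran from 7.12 through 7.50 to 7.58 in wild-type and from 7.76 through 7.81 to 7.91 in knockout vehicle arrays. With OCA the values were 7.19 through 7.37 to 7.46 and 7.82 through 7.95 to 8.05, so the genotypes separated under both treatments. It was 1.33-fold higher under vehicle (0.41 ± 0.07, limma, adjusted p = 8.47e-05) and 1.51-fold higher under OCA (0.60 ± 0.07, adjusted p = 4.01e-07). The difference between these 2 values, which is the genotype by treatment term, was 0.19 ± 0.10 (adjusted p = 0.837).

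Atg10, the conjugating enzyme of ATG12, was 0.35 ± 0.10 higher under vehicle (limma, adjusted p = 0.0114) and 0.42 ± 0.10 under OCA (adjusted p = 0.00242), with overlapping arrays. Array centring ended both calls (0.18 and 0.23, adjusted p = 0.129 and 0.0583). Atg16l1, which places the conjugate on membrane, was 0.19 ± 0.07 higher under OCA (adjusted p = 0.0361), lost the call in 6 of 12 fits without 1 array and stood at 0.00 with array centring. Its relative Atg16l2 had the widest interval of the members under vehicle (0.46 ± 0.21). It was called under vehicle without wild-type vehicle replicate 6 and within array number 7, among other fits.

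Atg3, the enzyme that passes ATG8 proteins to lipid, went the other way from Atg7. Wild-type vehicle arrays ran from 9.03 through 9.13 to 9.16 and knockout vehicle arrays from 8.83 through 8.87 to 8.94, without overlap. With OCA they ran from 9.03 through 9.21 to 9.30 and from 8.83 through 8.94 to 9.07, with overlap. The differences were −0.24 ± 0.05 in both (limma, adjusted p = 0.00136 and 0.000951), 1.18-fold lower. Atg7 and Atg3, opposite in direction, both hold CACGTG in the stretches shown above. Atg5, which holds it as well, stood at 0.03 ± 0.07 and 0.10 ± 0.07 (adjusted p = 0.776 and 0.326).

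**Figure D3:**
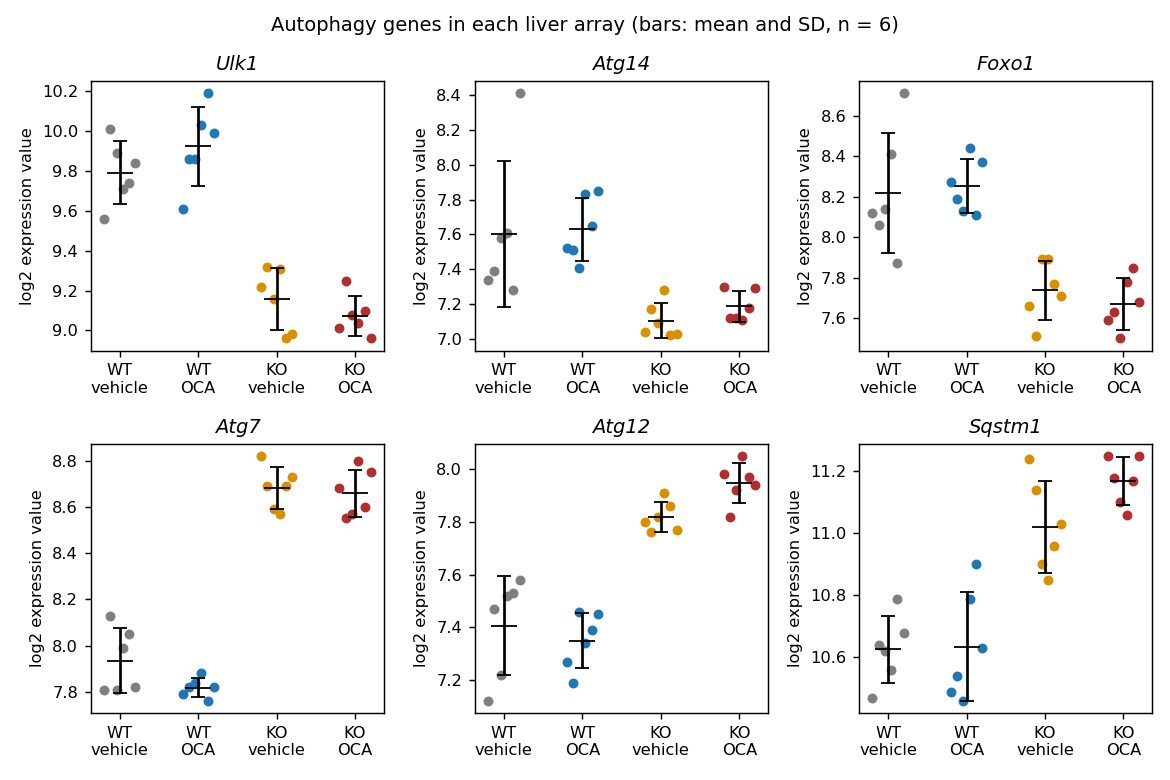
Log2 expression value in each of the 24 liver arrays (vertical axis) for Ulk1, Atg14, Foxo1, Atg7, Atg12 and Sqstm1 in the 4 groups, with bars for mean and SD (n = 6) and a separate scale per panel that does not start at 0. Knockout arrays lie below wild-type arrays for Ulk1 and above them for Atg7, Atg12 and, under the same treatment, Sqstm1. For Atg14 the wild-type vehicle array at 8.41 is replicate 6.

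None of the 3 measured ATG4 proteases, which trim and release ATG8 proteins, was called in either comparison (limma), against 27.5% and 30.7% of all genes. At an unadjusted p below 0.05 there were 0 as well. Array centring, however, called Atg4a and Atg4b lower under vehicle and all 3 lower under OCA. Their differences lay from −0.11 for Atg4a to 0.03 for Atg4c under vehicle. Of the 5 ATG8-family genes 2 were higher under vehicle and 1 under OCA, against 15.4% and 17.4% of all genes. Map1lc3a, an LC3 gene, ran from 7.14 through 7.43 to 7.57 in wild-type and from 7.51 through 7.84 to 7.95 in knockout vehicle arrays, with slight overlap. It rose by 0.38 ± 0.09 under vehicle (adjusted p = 0.00298) and 0.29 ± 0.09 under OCA (adjusted p = 0.0179). Array centring ended both calls (0.21 and 0.10, adjusted p = 0.0553 and 0.338). The vehicle call was also lost within array number 7 (0.33, adjusted p = 0.06), and the OCA call with the number as a block (0.16, adjusted p = 0.722) and in 2 of 12 fits without 1 array.

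Gabarap, of the other ATG8 branch, rose by 0.17 ± 0.05 under vehicle (limma, adjusted p = 0.0106), stood at 0.07 ± 0.05 under OCA (adjusted p = 0.259), and at 0.00 under vehicle with array centring. Its vehicle call was also lost with the array number as a block (0.14, adjusted p = 0.102) and within number 7 (0.14, adjusted p = 0.168), which give the same estimate. Under OCA its direction depended on the scaling, since it was called lower with array centring (−0.12) and higher with quantile normalization (0.14). Map1lc3b, the LC3 form most used as a marker of autophagosomes, stood at −0.17 ± 0.09 under vehicle (adjusted p = 0.183) and −0.03 ± 0.09 under OCA (adjusted p = 0.851). Its arrays ran from 10.28 to 11.07 in wild-type and from 10.19 to 10.42 in knockout vehicle liver, with 11.07 in replicate 6.

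Of 4 measured cargo receptors 1 was higher under vehicle, against 15.4% of all genes. Sqstm1, which encodes p62, the receptor for ubiquitin-tagged cargo, ran from 10.47 through 10.63 to 10.79 in wild-type and from 10.85 through 10.99 to 11.24 in knockout vehicle arrays. With OCA it ran from 10.46 through 10.58 to 10.90 and from 11.06 through 11.17 to 11.25. The genotypes did not overlap under either treatment. It was 1.31-fold higher under vehicle (0.39 ± 0.08, limma, adjusted p = 0.000399) and 1.45-fold higher under OCA (0.53 ± 0.08, adjusted p = 6.76e-06). With the array number as a block the OCA value was 0.44 (adjusted p = 0.0788).

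Nbr1, a related receptor, went the other way, falling by 0.18 under OCA (limma, adjusted p = 0.028) and standing at −0.12 ± 0.06 under vehicle (adjusted p = 0.147). Its OCA call ended in 5 of 12 fits without 1 array and without the arrays named with a final _2 (−0.16, adjusted p = 0.189). The mitophagy receptor genes Bnip3 and Bnip3l stood at −0.02 ± 0.11 and −0.05 ± 0.06 under vehicle, and neither was called under OCA. The probe sets used for Atg4a, Bnip3, Bnip3l and Gabarapl2 have 0 of their 10 neighbouring probe numbers on the chromosome of the gene, whereas 94.7% of 21185 probe sets have at least 5. Second probe sets, whose neighbours lie on the chromosome of the gene, gave −0.09 for Atg4a, −0.08 for Bnip3 and −0.06 for Bnip3l under vehicle. Gabarapl2 had no second probe set, and its values are uncertain.

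Of the transcription regulators 2 of 4 fell in knockout liver under vehicle and under OCA, against 12.1% and 13.3% of all genes. Of the 9410 genes above the median gene 2005 and 2223 fell. Foxo1, the FOXO factor of hepatic fasting genes, ran from 7.87 through 8.13 to 8.71 in wild-type and from 7.51 through 7.74 to 7.89 in knockout vehicle arrays, with overlap between 7.87 and 7.89. With OCA it ran from 8.11 through 8.23 to 8.44 and from 7.50 through 7.66 to 7.85, without overlap. It was 1.40-fold lower under vehicle (−0.48 ± 0.11, limma, adjusted p = 0.000963) and 1.49-fold lower under OCA (−0.58 ± 0.11, adjusted p = 0.000113). With the array number as a block the OCA value was −0.24 (adjusted p = 0.594).

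Crtc2 ran from 8.42 through 8.56 to 8.68 in wild-type and from 8.08 through 8.11 to 8.22 in knockout vehicle arrays, and with OCA from 8.11 through 8.33 to 8.57 and from 7.87 through 8.02 to 8.10. The genotypes did not overlap under either treatment. The gene was 1.35-fold lower under vehicle (−0.43 ± 0.06, limma, adjusted p = 8.63e-06) and 1.26-fold lower under OCA (−0.33 ± 0.06, adjusted p = 0.000194), and −0.42 under OCA with the array number as a block (adjusted p = 0.0662). Creb1 stood at −0.03 ± 0.07 under vehicle and −0.14 ± 0.07 under OCA (adjusted p = 0.825 and 0.122). Foxo3 stood at 0.23 ± 0.10 and −0.24 ± 0.10 (adjusted p = 0.0946 and 0.0715).

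Beyond the 42 genes, 71 of 74 listed genes of nutrient signalling, master regulation, PI3P control, vesicle fusion and selective receptors were measured. OCA in wild-type liver called 0 of them (limma, 4 at an unadjusted p below 0.05, which is 5.63%, against 9.47% of all genes). Knockout liver under vehicle had 23 higher and 12 lower, or 49.3%, against 27.5% of all genes, and under OCA 25 higher and 13 lower, or 53.5%, against 30.7%. The genes behind 27.5% and 30.7% were not matched to this list by expression level. Array centring turned the balance, to 13 higher and 24 lower under vehicle and to 14 and 21 under OCA. Rragd, a Rag GTPase that brings mTORC1 to the lysosome, was 4.53-fold higher under vehicle and 2.88-fold higher under OCA (adjusted p = 1.18e-12 and 9.29e-10). Its arrays ran from 4.32 through 4.50 to 4.92 in wild-type and from 6.57 through 6.72 to 6.92 in knockout vehicle liver.

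Other genes of this wider list followed in both directions. The partner Rag gene Rragc rose by 0.55 ± 0.06 under vehicle (limma, adjusted p = 2.39e-07), although its second probe set stood at 0.10. Prkab1, a regulatory subunit of the energy sensor AMPK, fell by 0.56 under vehicle (adjusted p = 2.72e-07) and by 0.57 under OCA. Rtn3, a receptor for tubular endoplasmic reticulum, rose by 0.43, the stress regulator Nupr1 by 1.39 and the fusion gene Vps41 by 0.37 under vehicle. For each of these genes knockout and wild-type vehicle arrays did not overlap. By sublist, 7 of 20 nutrient signalling genes were higher and 4 lower, and 6 of 14 fusion genes were higher and 1 lower. Among all genes 15.4% were higher and 12.1% lower, shares likewise not matched by expression level.

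Lists of known targets of the factors that control autophagy genes moved unevenly in knockout liver under vehicle. Against 27.5% of all genes, 5 of 10 PPARα, 6 of 15 FOXO, 5 of 11 CREB and 6 of 14 hypoxia targets were called. The genes behind 27.5% were not matched to these lists by expression level. Of the 9410 genes above the median gene 2402 were higher and 2005 lower, so these shares do not set the targets apart from well expressed genes. Of the PPARα targets 4 rose and 1 fell, among them the pantetheinase gene Vnn1 (1.89 ± 0.20), the kinase gene Pdk4 (2.37 ± 0.30) and the peroxisomal gene Ehhadh (0.64 ± 0.09). Of the FOXO targets 2 rose and 4 fell, with the gluconeogenic genes Pck1 (−1.23 ± 0.13) and G6pc (−1.34 ± 0.21) lower and Pdk4, which is also on this list, higher. Of the CREB targets 3 rose and 2 fell, with Ppargc1a, a coactivator of fasting genes, at −0.61 ± 0.13 and Fos, an immediate early gene, at 0.67 ± 0.16. Each of these genes passed (limma, adjusted p from 5.67e-08 to 0.00194).

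Among the 5 target lists, that of NRF2 had the highest share of calls. NRF2 is the activator of antioxidant genes that p62 can release from its inhibitor KEAP1. Of 11 measured targets 9 rose and 1 fell under vehicle (90.9%, against 27.5% of all genes), and 8 rose and 1 fell under OCA. The exporter gene Abcc4 was 11.4-fold higher, Srxn1, a sulfiredoxin, 2.96-fold and the quinone reductase gene Nqo1 2.73-fold, all under vehicle (limma, adjusted p = 1.27e-16, 9.53e-12 and 1.22e-07). Of the hypoxia targets, a list that bears on Bnip3, 4 rose and 2 fell under vehicle. OCA in wild-type liver moved 1 gene of the 5 target lists past the threshold, the hypoxia target P4ha1 (0.48, adjusted p = 0.033), a call lost in 8 of 12 fits without 1 array.

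**Figure D4:**
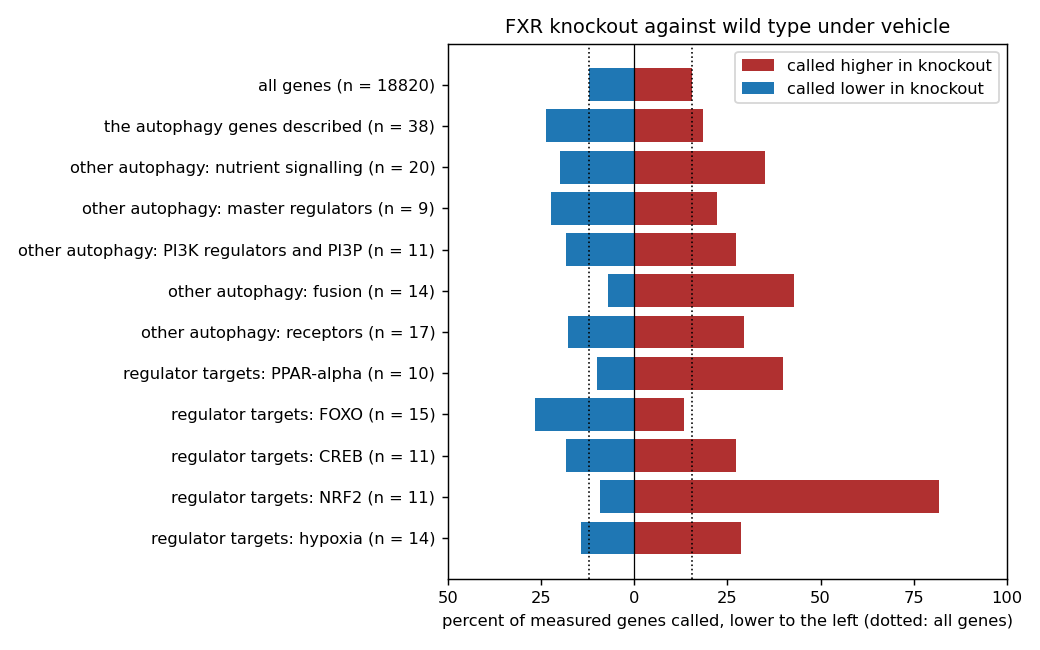
Share of measured genes called higher (red, to the right) and lower (blue, to the left) in knockout against wild-type liver under vehicle, for all genes, the 38 autophagy genes, 5 lists of other autophagy genes and 5 lists of regulator targets. Dotted lines mark the shares of all genes, 15.4% and 12.1%. The NRF2 list reaches furthest to the right, with 9 of 11 genes.

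Markers of some non-parenchymal cells moved with genotype as well. Under vehicle 6 of 9 Kupffer cell markers and 6 of 8 other myeloid markers were higher in knockout liver, with 0 lower, and all 6 stellate cell markers were higher (limma). Over all genes 15.4% were higher and 12.1% lower. The summed Kupffer level was 11.09 to 12.06 (log2) in wild-type and 12.14 to 12.31 in knockout vehicle arrays. The other myeloid sums were 9.12 to 9.78 and 10.54 to 10.84, and the stellate sums 10.97 to 11.42 and 11.81 to 12.07. Of the other lists, sinusoidal endothelium had 0 higher and 1 lower of 6 (median −0.10), lymphocytes 0 called of 4 (median −0.24, 2 at an unadjusted p below 0.05) and cholangiocytes 2 of 4 higher. Hepatocyte markers had 3 of 6 genes lower, with sums of 15.4 to 15.5 and 15.21 to 15.31. Under OCA 7 Kupffer, 6 other myeloid and 6 stellate markers were higher and all 6 hepatocyte markers lower, against 17.4% and 13.3% of all genes. The part of these cells in the autophagy differences was not tested.

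Other promoter letters were searched in the same windows. The shorter ACGTG, which overlaps CACGTG and is the core of the hypoxia element, occurred in 15 of 34 members (44.1%, against 21.8% of genes). TGACGT, part of the CREB element, occurred in 7 (20.6%, against 8.37%), and AGGTCA, the single repeat unit of nuclear receptor sites, in 7 (20.6%, against 18.1%). The FXR element, an inverted repeat of AGGTCA with 1 base between, and the FOXO letters GTAAACA were in 0 of 34, against 0.0111% and 4.05% of genes, and no match says only that these letters are not in these windows. TGACNNNGC, the NRF2 element, occurred in 4 members (11.8%, against 14%), among them Atg13 and Map1lc3b.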

How the data were processed

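Total liver RNA of 24 mice was hybridised to arrays, 1 per mouse, in 4 groups of 6 given by the labels. The deposited table holds log2 values that the authors made by RMA, per the submitters' processing notes, with no version; the log base was read from the range of 0.87 to 13.6. The quantile step of RMA is shared over arrays, so a global shift between genotypes would be reduced. Array medians lay between 4.57 and 4.65, and arrays give no count depth: their number, 6 per group, limits the precision.

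Of 35556 probe sets, 21218 carried 1 gene symbol in the platform annotation, 1881 carried several and 12457 were unlisted. Of the first, 21185 were given a current symbol by gene number, and the highest-mean probe set per gene left 18820 genes. limma 3.58.1 in R 4.3.3 fitted the 4 groups together (lmFit, eBayes, 20 residual and 4.46 prior degrees of freedom) with 5 contrasts. Benjamini-Hochberg adjustment covered all genes of a contrast, and genes with an adjusted p below 0.05 were called. Intervals are 95%. Tables and plots were made with Python 3.11.15, pandas 2.3.3 and matplotlib 3.10.9. On simulated data with 200 of 18820 genes changed, the fit recovered 72% of changes of 0.5 (log2) and 99% of changes of 1 for OCA in wild-type liver, and 77% and 98% for genotype under vehicle. For the genotype by treatment term it recovered 40% and 94.5%. In the data 5174 genes were called for genotype under vehicle, far more than the 200 simulated, so recovery there may differ.

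Any member could be named. Array values are given for at most 12 called members per contrast by smallest p and for the member with the smallest p in each role group for OCA in wild-type liver and genotype under vehicle. Of other autophagy genes at most 6 called per contrast are named, and of each regulator's targets at most 3, besides Nr1h4 and known FXR targets. Members and lists were chosen with earlier results of these data known. Alternatives tried were array median centring, quantile normalization, a filter at the median gene, trended robust eBayes, only the groups compared, array number as a block or alone, arrays named with a final _2 left out, replicate block, other probe set rules and each array left out.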

Additional observations from a re-analysis of the deposited data

Results flagged for a closer look

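Of 152 groups of 6 arrays tested over the 38 measured members, 11 held an array that stood far from the others by the gap between it and its nearest neighbour relative to the range of its group. Chance alone gives about 1 in 20 groups. Wild-type vehicle replicate 6 held 5 of the 11. In it Ulk2 was 8.02 (log2), with the next array at 8.74 and the highest at 9.06. Atg14 was 8.41, with the next at 7.61. Atg5 was 7.66, with the next at 7.94. Map1lc3b was 11.07, with the next at 10.44, and Gabarapl1 was 10.2, with the next at 10.84.

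The other 6 arrays were spread over the groups. Bnip3, measured by a probe set of uncertain placement, was 10.1 in wild-type vehicle replicate 5, below 10.6 in the next array. Atg10 was 5.55 in wild-type OCA replicate 5, below 6.02. In knockout vehicle arrays Rb1cc1 was 8.06 in replicate 6, above 7.91, and Crtc2 was 8.22 in replicate 4, above 8.12. In knockout OCA arrays Atg13 was 8.57 in replicate 3, below 9.08, and Atg4a, likewise of uncertain placement, was 7.41 in replicate 2, below 7.61.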

How the results depend on the processing

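For OCA in wild-type liver the count of called members was 0 higher and 0 lower in most settings. It was 1 higher in genes above the median gene, and 3 higher and 1 lower with the array number as a block, where calls over all genes rose from 13 to 667. Leaving out each array gave 0 to 1 higher and 0 lower, the 1 being Creb1 without wild-type vehicle replicate 3. With the number block and no wild-type vehicle replicate 6, a setting chosen after seeing the data, the counts were 0, and Atg2a (0.04), Atg4c (−0.09), Map1lc3b (0.09) and Bnip3l (0.02) changed sign. For OCA in knockout liver every setting gave 0. The genotype by treatment term gave 1 lower member with the number block and 0 without each array in turn.

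For genotype under vehicle array median centring gave 3 higher and 23 lower members, and turned Ambra1 to −0.04 and Gabarap to −0.00. Leaving out each array gave 6 to 8 higher and 8 to 10 lower. Under OCA centring gave 3 higher and 25 lower, the number block 2 and 5, and leaving out arrays named with a final _2 gave 7 lower. Leaving out each array gave 4 to 6 higher and 9 to 12 lower. Other autophagy genes under vehicle went to 13 higher and 24 lower with centring and to 19 to 23 and 10 to 16 without each array. Under OCA they went to 14 and 21 with centring, to 10 higher with the number block, to 16 higher without the arrays named with a final _2, and to 22 to 26 and 12 to 14 without each array. Ldha under OCA changed sign with the number block (0.02). With the replicate number as a block the counts were 6 higher and 9 lower under vehicle, 6 and 11 under OCA, and 0 for OCA in wild-type liver. The labels do not say whether mice sharing a replicate number were paired. Correlations of their deviations from the group means ran from −0.082 to 0.17 over 36 pairs, with 2 above 0.1. Except for centring, which moves the median gene, and settings with fewer arrays, the cause of these moves was not tested. With 6 arrays per group the design limits what small changes can be called.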
